A study of Homo sapiens with 8 samples.

Results

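BEX1, L1CAM and CACNA1H are genes better known from neural tissue than from liver, and each differed by more than 8-fold between HepG2 cells grown in 3D and in 2D. They were chosen by their fold change between the 2 kinds of culture, computed from these same 8 libraries, and for their neural associations, so that their difference between the cultures is given here as a description and carries no test. They are 3 of the 13943 genes that reached 10 counts in no fewer than 2 of the 8 libraries, out of 38032 genes listed. HepG2, a human cell line from a hepatocellular carcinoma with the wild-type genotype by its label, was cultured for 8 days either on flat culture ware (2D-primed) or on Alvetex Strata, a porous and inert polystyrene membrane (3D-primed). Polyadenylated RNA of 4 replicates of each kind was sequenced, and the labels do not say whether replicates were separate cultures, so that p-values measure the spread between these libraries, which may be technical. Both kinds of culture were grown in the same medium and released with trypsin, and the 3D-primed cells were seeded at a higher number per well, so that the substrate and the seeding number cannot be told apart. All libraries come from a single cancer line and not from normal hepatocytes.

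BEX1 (brain expressed X-linked 1) encodes a small, largely unstructured adaptor protein that binds the intracellular part of NGFR, the low-affinity neurotrophin receptor, and belongs to a cluster of related BEX and TCEAL genes on the long arm of the X chromosome. L1CAM encodes a cell adhesion molecule of the immunoglobulin superfamily that guides axons by binding to itself, to integrins and to neuropilins, is tied to the membrane skeleton by ankyrins and ezrin, and also appears at the invasive edge of some carcinomas. CACNA1H encodes the pore-forming subunit of a low-voltage-activated T-type calcium channel, found in sensory neurons and in the adrenal cortex, which opens close to the resting potential and needs no auxiliary subunit to conduct.

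In the GENCODE annotation of GRCh38, BEX1 (ENSG00000133169) lay at chrX:103062651-103064171 on the minus strand, with 1 transcript of 3 exons and 795 bases. L1CAM (ENSG00000198910) lay at chrX:153861514-153886173, also on the minus strand, and had 16 transcripts, of which the canonical one held 29 exons and 5138 bases. CACNA1H (ENSG00000196557) lay at chr16:1153106-1221771 on the plus strand, with 12 transcripts and 35 exons in 8219 bases of its canonical transcript. The 3 genes thus differed widely in length, which matters where levels of different genes are set side by side.

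The start of BEX1 is shown with those of its relatives BEX3 and TCEAL8, because the measured BEX and TCEAL genes moved together (values below), and that of L1CAM is shown because it moved the other way. The windows are RefSeq's on GRCh38.p14 and run from 250 bases before the start site to 50 bases from it on, each written 5′ to 3′ on the strand of its gene. That of BEX1 covers chrX:103064122-103064421 (minus strand), that of BEX3 chrX:103376288-103376587 (plus strand), that of TCEAL8 chrX:103255106-103255405 (minus strand) and that of L1CAM chrX:153875895-153876194 (minus strand), inside the span of L1CAM given above. Capitals mark the letters CACGTG in the first 3 sequences and GGGCGG or its reverse complement CCGCCC in the last.
BEX1: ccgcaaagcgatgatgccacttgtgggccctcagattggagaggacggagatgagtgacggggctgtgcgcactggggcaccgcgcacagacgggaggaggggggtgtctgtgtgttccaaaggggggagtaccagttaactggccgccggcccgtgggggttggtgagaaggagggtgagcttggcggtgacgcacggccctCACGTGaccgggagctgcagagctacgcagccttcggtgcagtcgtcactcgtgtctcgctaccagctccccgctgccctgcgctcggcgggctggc
BEX3: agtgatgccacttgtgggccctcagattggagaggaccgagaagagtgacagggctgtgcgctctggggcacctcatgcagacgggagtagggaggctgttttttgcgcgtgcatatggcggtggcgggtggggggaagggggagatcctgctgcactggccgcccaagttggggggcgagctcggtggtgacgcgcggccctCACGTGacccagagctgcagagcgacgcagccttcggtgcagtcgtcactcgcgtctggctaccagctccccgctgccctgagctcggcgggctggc
TCEAL8: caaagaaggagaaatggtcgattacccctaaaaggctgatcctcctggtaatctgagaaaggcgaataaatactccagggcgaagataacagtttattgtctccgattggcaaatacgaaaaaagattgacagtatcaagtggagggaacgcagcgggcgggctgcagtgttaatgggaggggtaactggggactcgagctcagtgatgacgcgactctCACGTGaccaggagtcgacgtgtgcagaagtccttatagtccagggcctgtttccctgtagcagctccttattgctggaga
L1CAM: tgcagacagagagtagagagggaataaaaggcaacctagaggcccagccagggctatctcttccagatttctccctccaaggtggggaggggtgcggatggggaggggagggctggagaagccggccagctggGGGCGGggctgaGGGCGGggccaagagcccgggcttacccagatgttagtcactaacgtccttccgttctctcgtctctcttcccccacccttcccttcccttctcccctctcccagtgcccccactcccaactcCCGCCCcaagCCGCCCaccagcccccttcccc

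The window of BEX1 was 67.0% G and C with 25 CG dinucleotides, where the median of 35116 windows was 58.7% and 14, and that of L1CAM was 64.7% G and C with 10. CACGTG, a palindrome that reads the same on both strands, began 47 bases before the start site in BEX1 and again 47 bases before it in this window of BEX3, and over the last 150 bases these windows were identical at 124 positions (82.7%). In TCEAL8 the same letters began 31 bases before the start and in BEX2 19 bases before it, and the alignment to BEX1 without gaps matched at 33.3% and 28.0% of the last 150 positions. Of the 13 BEX and TCEAL genes with a window, 11 held CACGTG in at least 1 of them. Among all 27305 genes with a window it was 2396, or 8.77%. The family shares ancestry, so that its windows are not independent of each other. The letters were held by 6 of the 7 tested members (not by TCEAL9) and by 5 of the 6 members that were too low to test. The window of L1CAM held no CACGTG and 4 matches to GGGCGG or CCGCCC, letters present in 45% of all windows, and BEX1 held none of these. TATAAA (the TATA box, in 11.5% of windows), GGAATG (the core of TEAD sites, 14.0%), CTTTGAT (TCF and LEF factors, 2.62%) and TTCAGCACC and GGACAGC (both parts of the element bound by REST, 0.376% and 6.03%) were searched for on both strands as well and were in neither window. A match is a stretch of letters and not a measured binding site. Another window of L1CAM, chrX:153875965-153876264, held 61.7% G and C and 8 CG dinucleotides. Neither window of L1CAM reaches 153886173, the end of its span at which a gene on the minus strand begins, so that start was not examined. No window for CACNA1H was used here.

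BEX1 was low on flat culture ware and above the middle of the genes tested by CPM on the membrane. Its counts in 2D-primed replicates 1 to 4 were 43, 60, 33 and 58, and in 3D-primed replicates 1 to 4 they were 642, 670, 633 and 701. Scaled to depth as CPM, the usual unit of counts relative to library size, with library sizes adjusted by the TMM method of edgeR, this was 1.97, 2.59, 1.34 and 2.45 CPM in 2D-primed against 24.2, 29.7, 22.7 and 27.8 CPM in 3D-primed libraries. The groups lay far apart, with the lowest 3D-primed library 8.75-fold above the highest 2D-primed one. The means were 2.09 ± 0.564 and 26.1 ± 3.21 CPM (SD, n = 4 here and for every value given with ±), a ratio of 12.5, and the fitted log2 fold change of 3D-primed over 2D-primed was 3.64 with a standard error (SE) of 0.164. Within a group the levels were close, the highest library being 1.31 times the lowest in 3D-primed against 1.93 times in 2D-primed cells. Counting alone gives the 2D-primed values a coefficient of variation of 12.9% to 17.4%, and their exact Poisson 95% intervals, which cover counting error only, ran from 0.924-1.89 CPM for replicate 3 to 1.98-3.34 CPM for replicate 2. In bulk RNA a smaller share of cells expressing a gene and less of its RNA per cell cannot be told apart.

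L1CAM moved the other way. It had 865, 1187, 1406 and 1051 counts in the 2D-primed libraries against 75, 84, 124 and 87 in the 3D-primed ones. In CPM these were 39.6, 51.3, 57.2 and 44.3 against 2.83, 3.72, 4.44 and 3.45, so that the lowest 2D-primed library stood 8.92-fold above the highest 3D-primed one. The adhesion molecule was thus a moderately expressed gene in flat culture and a scarce one on the membrane, at 48.1 ± 7.73 and 3.61 ± 0.669 CPM. The ratio was 13.3 and the fitted log2 fold change -3.73 (SE 0.149). Within a group the highest library was 1.44 times the lowest in 2D-primed against 1.57 times in 3D-primed cells.

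CACNA1H had the largest change of the 3, and again the higher level was in 2D-primed cells. Its counts were 567, 604, 610 and 522 in 2D-primed against 31, 34, 69 and 29 in 3D-primed libraries. The corresponding levels were 26.0, 26.1, 24.8 and 22.0 CPM against 1.17, 1.51, 2.47 and 1.15 CPM. The 2D-primed libraries were nearly alike, the highest being 1.19 times the lowest, while the 3D-primed ones spread 2.15-fold because of replicate 3. Its interval of 1.92-3.13 CPM overlapped that of replicate 2 and not those of replicates 1 and 4, which reached 1.66 and 1.65 CPM. The means were 24.7 ± 1.90 and 1.57 ± 0.621 CPM, a ratio of 15.7, and the log2 fold change was -3.96 (SE 0.185). Without 3D-primed replicate 3 it was -4.29.

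**Figure D1:**
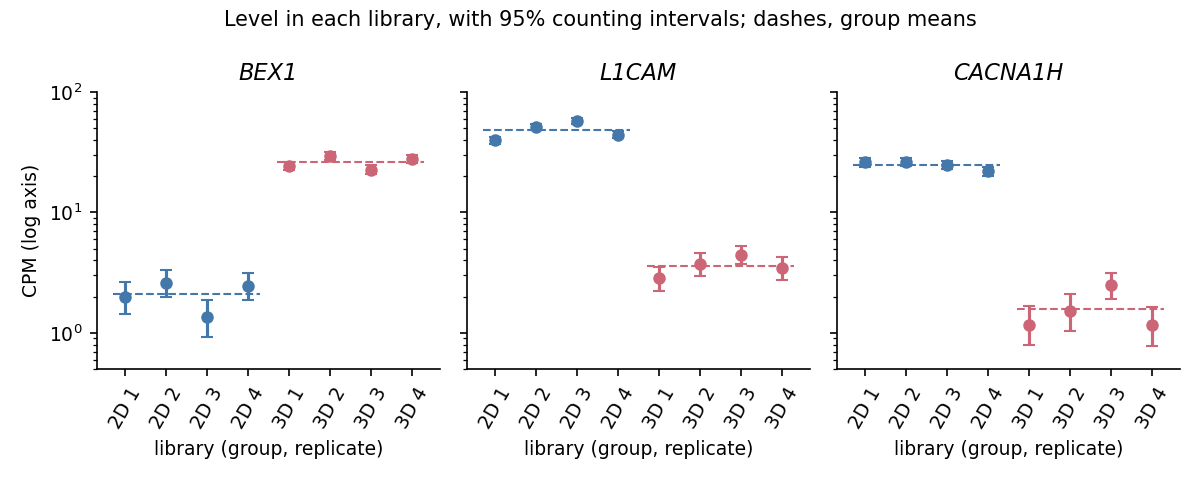
Level of BEX1, L1CAM and CACNA1H in each of the 8 libraries in CPM on a log axis, with exact Poisson 95% intervals for counting error as bars and group means as dashed lines. In all 3 genes every library of the higher group stands more than 8-fold above every library of the lower group, and 3D-primed replicate 3 is the highest of its group for L1CAM and CACNA1H and the lowest for BEX1.

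The contrast between the genes does not depend on how libraries are scaled, because their counts can be divided within a library. For each L1CAM count there were 0.0497, 0.0505, 0.0235 and 0.0552 BEX1 counts in the 2D-primed libraries and 8.56, 7.98, 5.10 and 8.06 in the 3D-primed ones. BEX1 per CACNA1H went from 0.0541-0.111 to 9.17-24.2. L1CAM and CACNA1H, which moved in the same direction, kept a ratio of 1.53 to 2.30 counts of L1CAM per count of CACNA1H in 2D-primed against 1.80 to 3.00 in 3D-primed libraries, ranges that overlap.

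3D-primed replicate 3 stood nearest to the 2D-primed group for all 3 genes. It was the highest of the 3D-primed libraries for L1CAM and for CACNA1H and the lowest for BEX1. Across the table it was the highest 3D-primed library in 43 of the 88 genes (48.9%) that were more than 8-fold higher in 2D-primed cells and in 2003 of the 4401 genes (45.5%) called higher there, against 3966 of all 13943 (28.4%). It was also the highest most often among the 49 genes more than 8-fold higher in 3D-primed cells, in 16 of them (32.7%), although not for BEX1. What sets this library apart was not tested.

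Set against each other per kilobase of the canonical transcript, BEX1 in 3D-primed cells had the highest level of the 3, at 32.8 CPM per kb, and CACNA1H in 3D-primed cells the lowest, at 0.192. L1CAM fell from 9.37 to 0.703 CPM per kb, CACNA1H from 3.01 to 0.192, and BEX1 started from 2.63. Short BEX1 was therefore above long L1CAM by level per length in 3D-primed cells and below it in 2D-primed cells. Ordered by CPM, which is not corrected for length, among the genes tested, BEX1 went from place 11530 in 2D-primed to 5907 in 3D-primed cells, L1CAM from 3803 to 10834 and CACNA1H from 6138 to 11856.

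Change was widespread in these cells, which sets the background for every count that follows. edgeR's quasi-likelihood test with Benjamini-Hochberg adjustment called 8916 of the 13943 genes (63.9%) at an adjusted p below 0.05, 4515 upwards in 3D-primed cells (32.4%) and 4401 downwards (31.6%), with a median log2 fold change of 0.01 over all genes. The groups did not overlap in CPM in 8334 genes (59.8%), so that separation of 4 libraries from 4 was common. Large change was not: 137 genes (0.983%) passed 8-fold, 49 upwards in 3D-primed cells (0.351%) and 88 downwards (0.631%), and the median size of a called change was 0.48 on the log2 scale. Libraries held 21599630 to 27844077 counts.

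By the size of the log2 fold change, CACNA1H was at place 50, L1CAM at 61 and BEX1 at 71 of 13943, and BEX1 was at place 30 among the genes with a positive change, CACNA1H at 25 and L1CAM at 35 among those with a negative one. Low counts were common among the genes placed above them. Of the 137 genes past 8-fold, 25 were at 0 in every library of the lower group, and among the 12389 genes with at least 10 counts in all 8 libraries 37 passed 8-fold, of which CACNA1H was at place 5, L1CAM at 12 and BEX1 at 15. Among the 9301 genes that reached a mean of 10 CPM in 1 of the groups the places were 9, 15 and 17, and 9 genes passed 8-fold upwards and 28 downwards.

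The genes just above and below them in rank mostly had fewer counts. UBXN10 (log2 fold change -3.66) and IL18 (-3.62), an inflammatory cytokine, flanked BEX1, the water and glycerol channel AQP10 (-3.75) and the mitochondrial folate enzyme ALDH1L2 (3.72) flanked L1CAM, and TRABD2B (3.98) and the lysyl oxidase LOXL2 (-3.94) flanked CACNA1H. Apart from LOXL2, which went from 18 to 1.16 CPM, these stayed below 4 CPM in both group means. At the limit of 8-fold itself the last genes inside were GBA3 (3.01) and the Krüppel-like factor KLF5 (-3.01, 56.7 to 6.94 CPM), and the first outside were BEX2 (2.97), a close relative of BEX1, and the vitamin D hydroxylase CYP24A1 (-2.99).

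**Figure D2:**
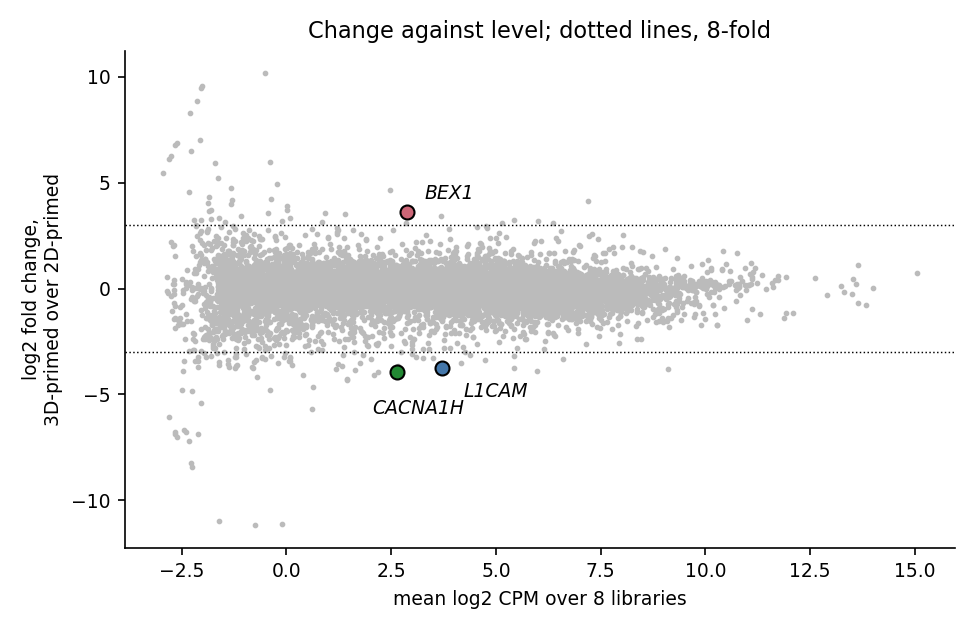
Log2 fold change of 3D-primed over 2D-primed cells for the 13943 genes tested (grey points) against the mean log2 CPM over the 8 libraries, with dotted lines at 8-fold. BEX1 lies above the upper line at 3.64 and L1CAM and CACNA1H below the lower line at -3.73 and -3.96, and most points farther from 0 lie at low levels on the left.

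Reads of related or overlapping genes could enter these counts. Of the 765 distinct 31-base words in the BEX1 transcript, 104 (13.6%) also occur in transcripts of 3 other genes, 92 of them in BEX2, whose highest count was 12. For L1CAM 412 of 7427 words (5.55%) are shared, all with an overlapping protein-coding locus, ENSG00000284987, that was listed at 0 in every library. For CACNA1H 121 of 8773 (1.38%) are shared, 75 of them with its paralog CACNA1I, which was also listed at 0. The mast cell protease gene TPSG1, which overlaps CACNA1H on the other strand, had at most 8 counts.

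The relatives of BEX1 that were expressed moved with it. Of the 13 other genes of the BEX and TCEAL family, small X-linked adaptors and nuclear proteins named after transcription elongation factor A, 6 were tested. Of these, 5 had at least 10 counts in all 8 libraries, and the 5 rose in 3D-primed cells (background 32.4%), with a median log2 fold change of 0.71 (0.01 over all genes). BEX2 reached the count filter through its 3D-primed libraries alone, so that it had to be higher there, and is left out of this count. The other 7 never passed 2 counts, BEX4, TCEAL2 and TCEAL6 being listed at 0 throughout. Per kilobase of transcript BEX1 went from 2.63 to 32.8 CPM, BEX3 from 7.97 to 26.5 and TCEAL8 from 8.63 to 21.7, so that BEX1 was below both relatives in 2D-primed cells and above both in 3D-primed cells.

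BEX3, which also binds NGFR and has been linked to neurotrophin-dependent cell death, stood at 6.83, 6.61, 5.98 and 6.41 CPM in 2D-primed against 22.6, 24.4, 18.6 and 20.1 CPM in 3D-primed libraries. All 3D-primed libraries were above all 2D-primed ones, and it rose less than BEX1, by a log2 fold change of 1.73 (SE 0.0921, edgeR adjusted p = 1.7e-07). TCEAL8 went from 10.1 ± 1.23 to 25.4 ± 3.04 CPM (1.33, SE 0.107, adjusted p = 2.4e-06). TCEAL4 at 0.71, TCEAL9 at 0.48 and TCEAL1 at 0.42 rose by less than 2-fold, with adjusted p of 7.1e-06, 2.7e-04 and 8.8e-04. BEX2 had 1, 0, 0 and 3 counts against 11, 10, 12 and 5, a log2 fold change of 2.97 (SE 0.736) that rests on 4 counts in the 2D-primed group and was 4.27 without 2D-primed replicate 4, and its shared sequence with BEX1 makes it uncertain.

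The receptor that BEX1 and BEX3 bind went the opposite way. NGFR had 202, 315, 373 and 284 counts in 2D-primed against 34, 26, 28 and 38 in 3D-primed libraries. At 12.5 ± 2.53 against 1.24 ± 0.214 CPM it passed 8-fold too, with a log2 fold change of -3.34 (SE 0.181, edgeR adjusted p = 1.9e-07). Of the 12 genes listed for neurotrophin receptor signalling 5 were tested and all 5 were called (63.9% of all genes), 4 of them higher in 2D-primed cells (31.6%), with a median log2 fold change of -0.34. SORT1, the sortilin co-receptor of NGFR, fell from 343 ± 8.76 to 224 ± 3.16 CPM (-0.62, adjusted p = 2.3e-07), the adaptors RIPK2 and TRAF6 were at -0.34 and -0.28 (0.0025 and 0.0018), and MAGED1, which binds NGFR, rose by 0.29 (0.0060). The receptor NTRK2 and the ligands NTF3 and NTF4 were listed at 0, and NTRK3 and BDNF had at most 3 counts, but a gene listed at 0 is not shown to be off, since EHMT2, a chromatin enzyme that most cells express, was listed at 0 in all 8 libraries too.

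The rest of the L1 family had few counts or was listed at 0. CHL1 was listed at 0, NFASC did not pass 3 counts, and NRCAM, the neuronal cell adhesion molecule, was at 0.430 ± 0.0956 CPM in 2D-primed against 0.779 ± 0.223 CPM in 3D-primed cells. Its log2 fold change of 0.85 (SE 0.303) was called by edgeR at an adjusted p of 0.030, which was lost in DESeq2 (adjusted p = 0.079) and on leaving out 2D-primed replicate 2 or 3 or 3D-primed replicate 3 or 4 (adjusted p 0.067 to 0.088).

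**Figure D3:**
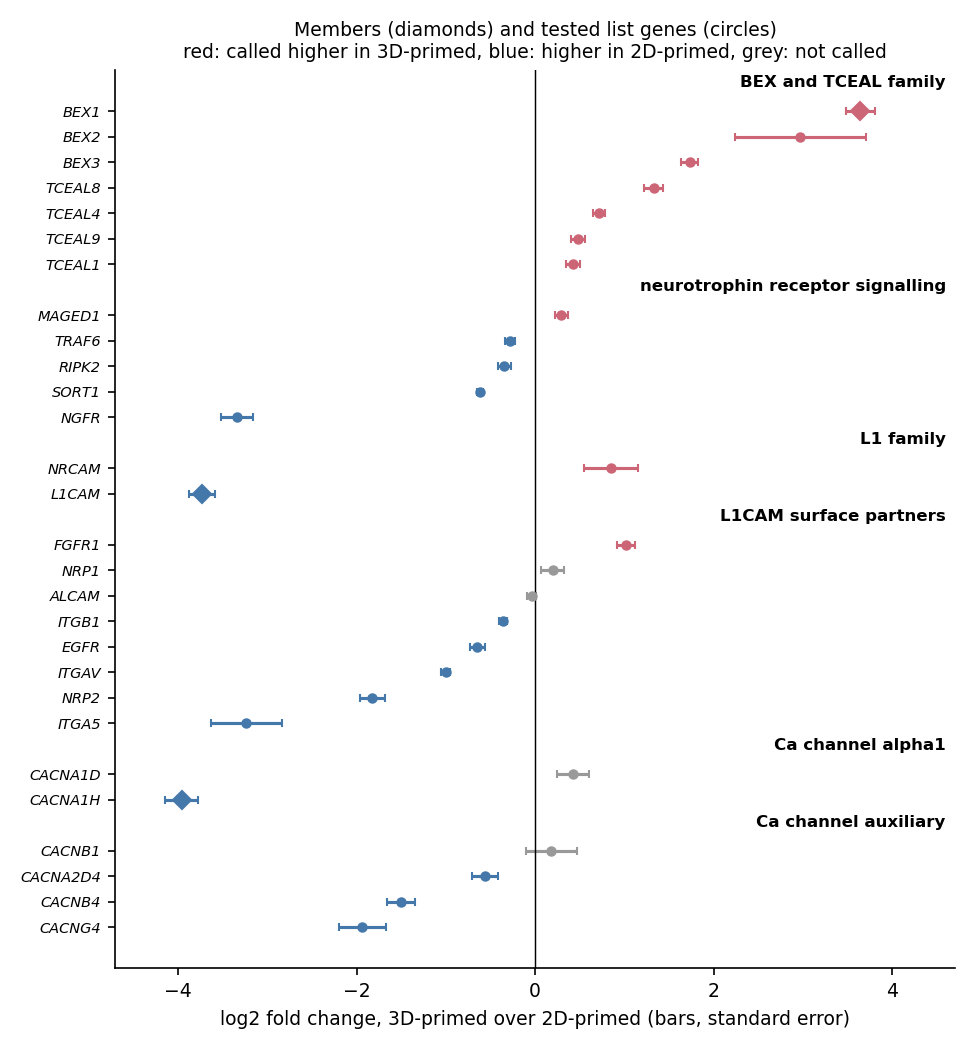
Log2 fold change of 3D-primed over 2D-primed cells with its standard error for BEX1, L1CAM and CACNA1H (diamonds) and the tested genes of their families and partner lists (circles), red where higher in 3D-primed, blue where higher in 2D-primed and grey where not called. The tested relatives of BEX1 lie to the right of 0 and NGFR at -3.34 on the left beside L1CAM and CACNA1H, and BEX2 and ITGA5 passed the count filter through 1 group alone.

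L1CAM binds other proteins at the cell surface, among them integrins. Of 13 listed 8 were tested, and of the 7 that passed the count filter in both groups 4 fell (background 31.6%) and 1 rose (32.4%) in 3D-primed cells, with a median log2 fold change of -0.36. ITGA5, an integrin subunit and fibronectin receptor that L1CAM engages through its immunoglobulin domains, had 24, 39, 62 and 43 counts in 2D-primed against 4, 4, 9 and 2 in 3D-primed libraries. It passed the count filter through the 2D-primed libraries alone and so had to be higher there, and its fitted log2 fold change of -3.24 (SE 0.398) is given without a test. NRP2, a neuropilin and semaphorin receptor, went from 10.4 ± 1.52 to 2.93 ± 0.50 CPM (-1.82, SE 0.143, edgeR adjusted p = 2.0e-06). FGFR1, a receptor tyrosine kinase that L1CAM can activate, rose from 41.6 ± 0.646 to 84.5 ± 13.6 CPM (1.02, SE 0.0988, adjusted p = 8.2e-06). Neuronal partners had few counts, with NCAM1, NCAM2 and CNTN1 at no more than 2 counts.

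Among 9 cytoplasmic linkers 7 were tested, and 4 fell and 1 rose in 3D-primed cells (5 of 7 called, where 63.9% of all genes were), with a median of -0.24. EZR, which encodes ezrin, fell from 152 ± 9.91 to 73.0 ± 2.62 CPM (-1.06, SE 0.0517, edgeR adjusted p = 1.1e-07) and the ankyrin gene ANK2 from 18.6 ± 1.26 to 13.5 ± 0.719 (-0.46, 1.3e-04), while the scaffold DLG1 rose from 43.5 ± 2.46 to 62.8 ± 2.01 (0.53, 4.8e-06). All 8 genes of the proteases that shed and process L1CAM were expressed. Of these 3 fell and 1 rose in 3D-primed cells, and 4 were not called (63.9% of all genes were), with a median of -0.08. The sheddase ADAM10 fell by 0.51 on the log2 scale (225 ± 9.43 to 158 ± 4.69 CPM, adjusted p = 2.6e-06), NCSTN of the gamma-secretase complex fell by 0.48 (3.8e-06), and PSEN2 of the same complex rose by 0.45 (0.0037). Each of these changes was under 2-fold, where that of L1CAM was 13.3-fold.

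The list of 12 factors known to act on L1CAM transcription, including the growth factor TGFB1, had 9 tested genes, and of the 8 that passed the count filter in both groups 5 fell in 3D-primed cells (background 31.6%) and 3 were not called, with a median of -0.33. On leaving out a library in turn, 4 to 7 of the 9 were called, a share near the 63.9% of all genes. TGFB1 fell from 166 ± 12.8 to 65.9 ± 3.18 CPM (-1.33, SE 0.0601, edgeR adjusted p = 7.0e-08) and the zinc finger factor ZEB1 from 34.3 ± 1.76 to 21.3 ± 1.65 (-0.69, SE 0.0628, adjusted p = 5.4e-06). SNAI2, of the Snail family, had 1, 1, 1 and 8 counts against 10, 11, 5 and 18 (1.85, and 3.19 without 2D-primed replicate 4). The groups overlap, and it passed the count filter through its 3D-primed libraries alone, so that no test is given. TWIST1 was listed at 0.

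The other voltage-gated calcium channels had few counts or were listed at 0. Of the 9 other pore-forming subunits 1 was tested, and the other 8 did not pass 7 counts. Among these, CACNA1I, a paralog of CACNA1H, and the skeletal muscle channel CACNA1S were listed at 0. CACNA1D, an L-type channel, had 1.10, 1.25, 0.977 and 1.31 CPM in 2D-primed against 1.47, 1.42, 1.72 and 1.63 CPM in 3D-primed libraries, with no overlap between the groups. Its log2 fold change of 0.43 (SE 0.177) did not pass edgeR's test (adjusted p = 0.056) and passed under limma-voom (0.044), total counts (0.046), upper quartile scaling (0.036) and a filter of 10 counts in all 8 libraries (0.033). Per kilobase of transcript CACNA1D stood at 0.124 CPM in 2D-primed cells, far below CACNA1H at 3.01, and at 0.166 CPM per kb in 3D-primed cells, close to CACNA1H at 0.192.

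Auxiliary subunits, which high-voltage-activated channels need and T-type channels do not, mostly had too few counts for a test. Of 16, 4 were tested, 5 were listed at 0 and the other 7 had at most 10 counts in a library. Of the 4 tested, 3 fell in 3D-primed cells and 1 was not called (background 31.6% falling), with a median of -1.03. CACNG4, a transmembrane regulator of AMPA receptors, was at 1.88, 3.03, 1.71 and 1.77 CPM against 0.528, 0.443, 0.717 and 0.476 (-1.94, SE 0.263, adjusted p = 9.4e-05). CACNB4, a cytoplasmic beta subunit, went from 5.95 ± 0.397 to 2.10 ± 0.433 CPM (-1.50, SE 0.155, adjusted p = 1.3e-05). The remaining tested subunits were CACNA2D4 at -0.56 (0.0058) and CACNB1 at 0.18 (0.59). The genes thus called moved in the direction of CACNA1H and by less. The groups of CACNA2D4 overlapped, at 33.2 to 44.6 CPM in 2D-primed against 22.0 to 34.4 CPM in 3D-primed libraries.

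Regulators of CACNA1H did not share a direction. Of 14 listed 9 were tested, 2 rose and 4 fell in 3D-primed cells (6 of 9 called, where 63.9% of all genes were), with a median of 0.03. EGR1, an immediate early factor that acts on the CACNA1H promoter, was at 70.8, 46.6, 39.4 and 37.0 CPM in 2D-primed against 142, 115, 129 and 226 CPM in 3D-primed libraries, a log2 fold change of 1.66 (SE 0.247, edgeR adjusted p = 1.8e-04) and so opposite to CACNA1H. The ubiquitin ligase WWP1 fell by 0.43 (adjusted p = 1.7e-05) and the kinase subunit CAMK2G by 0.30 (5.8e-04), while the calmodulin gene CALM3 rose by 0.19 (0.0030).

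**Figure D4:**
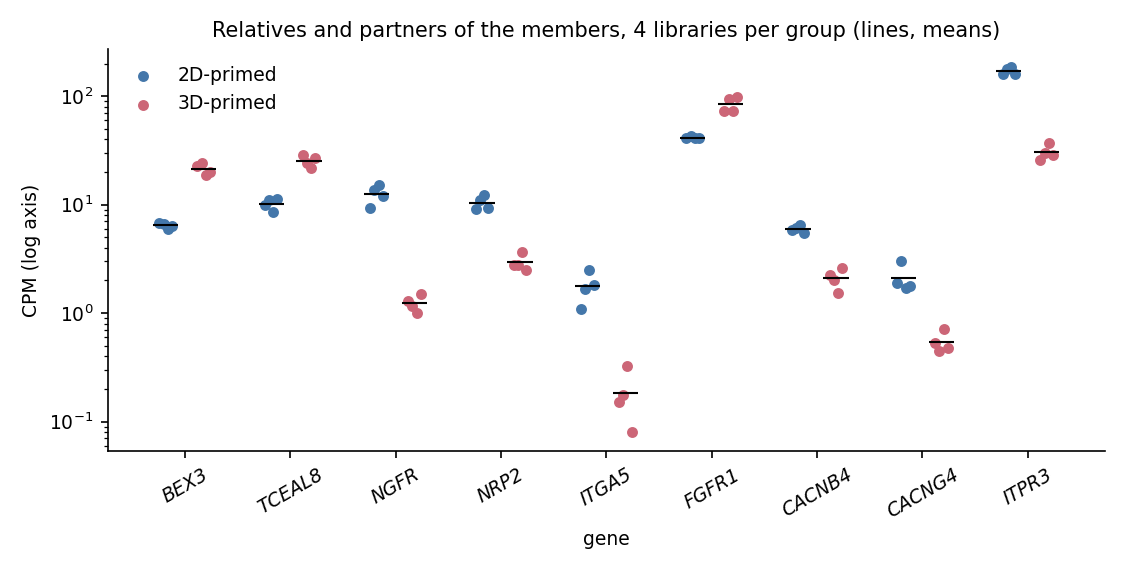
CPM in each library (points) with group means (lines) on a log axis for 9 relatives and partners of the 3 genes. BEX3, TCEAL8 and FGFR1 are higher in the 3D-primed libraries, and NGFR, NRP2, ITGA5, CACNB4, CACNG4 and ITPR3, an intracellular calcium release channel at 170 against 30.3 CPM, are higher in the 2D-primed ones. The groups do not overlap in any of the 9, nor do they in 59.8% of all genes tested. ITGA5 passed the count filter through the 2D-primed libraries alone.

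The nearest 5 tested protein-coding genes on either side of each of the 3 genes were taken, and around each gene 6 of 10 were called by edgeR, near the 63.9% of all genes. Those called include BEX2 and TPSB2, which passed the count filter through a single group, so that their direction was fixed beforehand. Around BEX1 all 6 were called upwards in 3D-primed cells, but BEX2 among them had to be higher there, so that this count is a description only. The other family members among the 6, TCEAL8, TCEAL9, BEX3 and TCEAL4, were already counted above. Over the 10 neighbours the log2 fold changes ran from 0.08 to 2.97, the value of BEX2, with a median of 0.62. The whole of the side with the larger coordinates was called, TCEAL8, BEX2, TCEAL9, BEX3 and TCEAL4, whereas on the other side GPRASP3, a receptor sorting protein, was called at 0.62 (SE 0.196, adjusted p = 0.018, and 0.052 without 2D-primed replicate 3). The X chromosome as a whole did not stand out, with 149 of 420 tested genes (35.5%) higher in 3D-primed cells, 114 higher in 2D-primed cells and 3 past 8-fold.

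Around L1CAM, in 272 kb, 4 of 10 rose and 2 fell in 3D-primed cells (background 32.4% and 31.6%), the median was 0.04 and the range -0.69 to 0.43. The nearest on either side were SSR4, of the translocon, at 0.24 (SE 0.0444, edgeR adjusted p = 8.7e-04), and ARHGAP4, a GTPase-activating protein, at -0.69 (SE 0.377, adjusted p = 0.13). Around CACNA1H 2 of 10 rose and 4 fell in 3D-primed cells, with a median of -0.04, and 4 to 6 were called on leaving out a library. Its nearest neighbours were the somatostatin receptor SSTR5 at 0.62 (SE 0.278, adjusted p = 0.075) and the tryptase TPSB2 at -2.82 (SE 0.584). TPSB2 was at 0.581 against 0.0752 CPM and passed the count filter through its 2D-primed libraries alone. It therefore had to be among the 4 that fell, and that count is a description only. Its sequence is nearly identical to those of its neighbouring tryptase genes, which makes its counts uncertain.

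**Figure D5:**
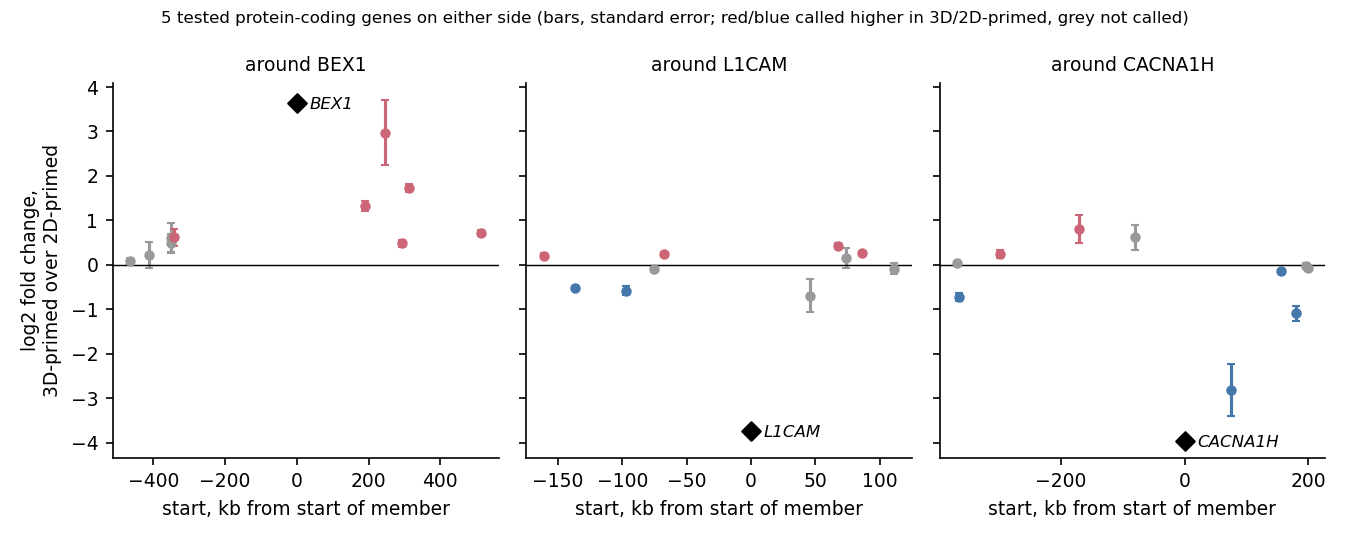
Log2 fold change with standard error of the 5 tested protein-coding genes on either side of BEX1, L1CAM and CACNA1H (black diamonds) against the distance between gene starts in kb, red where called higher in 3D-primed, blue in 2D-primed and grey where not called. The genes on the right of BEX1 are all red, and those around L1CAM lie between -0.69 and 0.43. BEX2 beside BEX1 and TPSB2 beside CACNA1H passed the count filter through a single group, so that their direction was fixed beforehand.

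BEX1, L1CAM and CACNA1H are known from neural tissue, and genes of that kind were examined as a group. REST, which silences neuronal genes in other tissues, was at 38.4 ± 1.51 CPM in 2D-primed against 35.9 ± 2.57 CPM in 3D-primed cells, and its log2 fold change of -0.10 (SE 0.0564) did not pass (edgeR adjusted p = 0.16). Of 9 tested genes among REST and its corepressors 3 rose and 5 fell in 3D-primed cells (background 32.4% and 31.6%), all by less than 2-fold. The CoREST genes RCOR1 and RCOR2 fell by 0.51 and 0.45 (adjusted p = 4.1e-06 and 9.2e-04), and HDAC1 and KDM1A, which encode enzymes of the same complex, rose by 0.29 and 0.21 (5.0e-05 and 7.6e-04).

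Of 23 known REST targets 11 were tested, and of the 9 that passed the count filter in both groups 6 rose (background 32.4%) and 1 fell (31.6%) in 3D-primed cells, with a median of 0.73. SYP, the synaptic vesicle protein synaptophysin, went from 2.70 ± 0.488 to 8.49 ± 0.897 CPM (1.65, SE 0.137, edgeR adjusted p = 2.9e-06) and the stathmin STMN3 from 13.2 ± 1.38 to 41.8 ± 4.83 CPM (1.66, SE 0.0948, adjusted p = 2.5e-07). SCG5, a chaperone of prohormone convertase, had 0, 4, 2 and 2 counts against 21, 8, 20 and 22 (2.93, SE 0.567, and 3.48 without 2D-primed replicate 2) but passed the count filter through its 3D-primed libraries alone, so that no test is given. CPE, the carboxypeptidase that trims neuropeptides, fell by 0.25 (adjusted p = 0.014). The 6 that rose moved as BEX1 did and opposite to L1CAM and CACNA1H. L1CAM is itself a known REST target. The list of targets is not complete and holds none of the 3 genes, so that the fall of L1CAM and of CACNA1H is not in its counts.

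Most neuronal markers had too few counts for a test at this depth. Of 16 neuronal markers 3 were tested. The neuronal tubulin TUBB3 fell from 101 ± 2.44 to 73.7 ± 4.59 CPM (-0.46, edgeR adjusted p = 1.5e-05), the enolase ENO2 from 187 ± 23.7 to 40.1 ± 10.8 CPM (-2.22, 1.4e-06), and SYP rose as given above. The other 13 had at most 28 counts in a library, and NEFM, ELAVL4 and DCX were listed at 0.

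The cells carried the markers of their label. The 10 hepatocyte markers, ALB among them, were all tested and summed to 71422 to 77486 CPM in 2D-primed against 91954 to 103017 CPM in 3D-primed libraries. Of these markers 7 rose and 2 fell in 3D-primed cells (background 32.4% and 31.6%). In the lists of other cells the members too low to test were COL1A2, COL3A1, PDGFRA, DCN and LUM of fibroblasts, KDR and TEK of endothelium, PTPRC and HBB of blood and KRT7 of bile ducts. None of these passed 2 counts. The remaining members of the same lists were tested, among them CD68, LYZ and CD14 of blood and KRT19, EPCAM and SOX9 of bile ducts. The whole fibroblast list (3 of 8 tested) summed to 42.7-46.9 CPM in 2D-primed against 40.6-48.8 in 3D-primed libraries, the endothelial list (3 of 5) to 5.66-7.76 and 4.16-5.70, and the blood list (3 of 5) to 2194-2286 and 2421-3027. The bile duct list (3 of 4 tested, all 3 higher in 2D-primed cells, background 31.6%) summed to 737-828 CPM in 2D-primed against 418-446 CPM in 3D-primed libraries, and so moved with L1CAM and CACNA1H. Within the fibroblast list the collagen COL1A1 was at 0.969 against 0.0703 CPM, past the count filter through its 2D-primed libraries alone, PDGFRB rose from 10.7 to 16.4 CPM and ACTA2 was not called. Within the endothelial list VWF rose from 1.11 to 1.71 CPM, CDH5 fell from 4.73 to 1.59 CPM and PECAM1, at 1.03 against 1.41 CPM, was not called. The part of these lists in the change of BEX1, L1CAM and CACNA1H was not tested.

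The genes whose pattern over the 8 libraries was most like that of each of the 3 were found as those with the smallest root mean square difference in log2 CPM after centring each gene on its mean. For BEX1 these were the cytokine receptor IL21R (0.208), the glycine transporter SLC6A9 (0.243, 3.90 ± 0.478 to 41.8 ± 4.57 CPM) and the clotting factor subunit F13B (0.285). For L1CAM they were the matricellular gene CCN1 (0.151, 161 ± 15.8 to 11.8 ± 2.38 CPM), the corepressor HR (0.187) and the annexin ANXA3 (0.191). CCN1 was also the nearest to CACNA1H (0.198), followed by the inhibin subunit INHBB (0.230) and the glucose transporter SLC2A3 (0.233, 2102 ± 236 to 153 ± 56.3 CPM). Part of this likeness is the size of the group difference, which the choice of the 3 genes fixes.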

How the data were processed

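RNA of 8 HepG2 libraries, 4 per group, was analysed. The authors deposited estimated counts per gene, 1 file per library, obtained with Salmon on the Ensembl cDNA of GRCh38 and collapsed by gene in tximport. All values were rounded to integers before use, without depth scaling, and the tximport setting on transcript length is not given in the sources used here. A gene was tested with at least 10 counts in at least 2 libraries, as in the study's methods. Counts were scaled by TMM and tested with glmQLFit and glmQLFTest of edgeR 4.0.16 in R 4.3.3, with p adjusted by the Benjamini-Hochberg method over all 13943 genes and a threshold of 0.05. The prior count of the fitted fold change was 0.125. Symbols, positions and lengths came from GENCODE v44, which held 34977 of the 38032 identifiers (92.0%). Figures were drawn in Python 3.11.15 with matplotlib 3.10.9.

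The libraries were grouped by their titles. BEX1, L1CAM and CACNA1H, the 15 gene lists and the 5 marker lists, which come from general knowledge, were chosen with earlier results of these data known. Named were the 3 genes, all tested members of their families, up to 2 called genes per direction and other list by size of change, REST, and the nearest genes in position, rank, pattern and at the limit of 8-fold. The other genes named are listed at 0, near 0 or given for completeness of a list, and were chosen after their values were seen. Alternatives were DESeq2 1.42.0, limma-voom (limma 3.58.1), median-of-ratios size factors, total counts, upper quartile, no filter, filterByExpr, 10 counts in all 8 libraries, a prior count of 2, the replicate number as a block and leaving out each library. The pipeline was tested on simulated data. Intervals of counts were exact Poisson intervals at 95%. A few list genes are counted but left unnamed.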

Additional observations from a re-analysis of the deposited data

Results flagged for a closer look

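Among the 71 genes named, each looked at in both groups (142 combinations), 9 had 1 library farther from the other 3 of its group than Dixon's 95% criterion allows, where chance gives about 1 in 20. None of them was BEX1, L1CAM or CACNA1H. In the BEX family, BEX2 was at 0.199 CPM in 3D-primed replicate 4 against 0.415 to 0.443 CPM in the other 3. Among the calcium channel genes, CACNG4 was at 3.03 CPM in 2D-primed replicate 2 against 1.71 to 1.88 CPM. Of the factors that act on L1CAM, SNAI2 was at 0.338 CPM in 2D-primed replicate 4 against 0.0407 to 0.0458 CPM. REST was at 32.0 CPM in 3D-primed replicate 1 against 36.8 to 37.4 CPM.

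3D-primed replicate 3, the library nearest to the 2D-primed group for all 3 genes, was the one that stood apart in CCN1, the gene most like L1CAM and CACNA1H, at 15.3 CPM against 10.4 to 11.1 CPM. It also stood apart in CYP24A1, at 3.12 CPM against 1.99 to 2.15 CPM, and in KLF5, at 11.6 CPM against 5.16 to 5.71 CPM, in each of these toward the 2D-primed level. In the 2D-primed group replicate 1 stood apart in the same pair of genes, with CYP24A1 at 22.6 CPM against 17.3 to 17.7 CPM and KLF5 at 43.0 CPM against 59.96 to 62.3 CPM.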

How the results depend on the processing

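BEX1, L1CAM and CACNA1H kept their direction under all alternatives run. Their log2 fold changes ranged from 3.47 to 3.76, from -3.86 to -3.63 and from -4.29 to -3.83, and the extremes of all 3 came from leaving out a library. Their places by size of change moved with the low counts admitted. In the order BEX1, L1CAM, CACNA1H they were 15, 12 and 5 of 12389 with 10 counts in all 8 libraries, 41, 33 and 23 of 13364 with filterByExpr, 260, 245 and 191 of 21110 with no filter, and 32, 28 and 22 of 13943 with a prior count of 2. Leaving out a library gave 61 to 85, 61 to 74 and 47 to 62.

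The number of genes called ranged from 8357 (without 2D-primed replicate 3) to 9070, and the share of calls higher in 3D-primed cells from 49.0% to 56.2% (upper quartile), against 50.6%. The called genes of the L1 family, which is NRCAM alone, went from 1 to 0 with 10 counts in all 8 libraries, where NRCAM was not tested, with DESeq2 and with the replicate block, and ranged from 0 to 1 on leaving out a library. The called pore-forming calcium channel genes other than CACNA1H went from 0 to 1, CACNA1D, with 10 counts in all 8 libraries, limma-voom, total counts and upper quartile. The cause was not tested. SSTR5 passed without 3D-primed replicate 3 (adjusted p = 0.049).

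No pairing of libraries by replicate number was found, which does not show that there was none. The deviations of same-numbered libraries correlated at -0.0433, -0.0140, 0.0574 and 0.00617, and not every library correlated best with its own number. With the replicate number as a block, 8490 genes were called, and BEX1, L1CAM and CACNA1H were at 3.66, -3.74 and -3.98. Values of the genes other than these 3 kept direction and side of the threshold in 836 cases, passed in 5 and were lost in 13. Depth limits the genes listed at 0 or with a few counts, whose absence is not shown.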

Other observations

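Beyond the voltage-gated channels, 17 of 23 genes for calcium entry, store release and pumping were tested, and 8 were called up in 3D-primed cells and 6 down (background 32.4% and 31.6%), with a median log2 fold change of 0.08. The release channel of the endoplasmic reticulum ITPR3 fell from 170 ± 11.7 to 30.3 ± 4.62 CPM (-2.49, SE 0.0973, edgeR adjusted p = 3.5e-08), in the direction of CACNA1H. ATP2A1, a calcium pump of the sarcoplasmic reticulum, fell from 6.76 ± 0.526 to 3.35 ± 0.725 CPM (-1.01, adjusted p = 1.6e-04). The plasma membrane pump ATP2B2 rose from 9.52 ± 1.04 to 27.1 ± 5.08 CPM (1.51, SE 0.134, adjusted p = 4.5e-06) and the store-operated channel ORAI3 from 18.5 ± 0.707 to 27.6 ± 2.74 CPM (0.58, adjusted p = 4.9e-05).

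Of 10 glial and neural crest markers 4 were tested. AQP4, the water channel of astrocytes, was at 0.687 ± 0.104 against 0.261 ± 0.0604 CPM, but passed the count filter through its 2D-primed libraries alone, so that no test is given. SOX10 and OLIG2, which define these lineages, were listed at 0. ERBB3 was at -0.08 (edgeR adjusted p = 0.14).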
